A study of Homo sapiens with 6 samples.

Results

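The genes described here are the protein-coding genes of human chromosome 19 whose symbol is ZNF, a number and at most 1 further letter. There are 246 of them among the 58735 genes of the deposited table. They were followed in MG63, an established human osteosarcoma cell line, 48 h after the cells received either an siRNA to FUBP1 (3 siFUBP1 samples) or the control siRNA (3 siMock samples). FUBP1 encodes a single-stranded nucleic acid-binding protein known as a regulator of MYC transcription and of splicing. All samples are of 1 cell line, and which of the study's FUBP1 siRNAs was used for sequencing is not given in the sources used here. The labels do not say whether the 3 samples of a group came from separate cultures, so p-values measure only the spread between these samples, which may be technical.

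Zinc finger genes of the ZNF series encode proteins with tandem C2H2 fingers, each a short loop folded around a zinc ion that can contact a few bases of DNA. Most of those on chromosome 19 arose by repeated local duplication and stand in tandem clusters. Many also encode a KRAB domain, which binds the corepressor TRIM28 and through it brings the histone methyltransferase SETDB1 and HP1 proteins to chromatin, where H3K9 methylation silences transposable elements and other targets. In the GENCODE 29 transcripts, 208 of the 246 proteins held a match to a KRAB pattern and 38 did not, and the median number of C2H2 fingers was 12, with a range of 0 to 36.

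The 6 libraries held between 16309900 and 17484313 counts, and 16116 genes passed the filter on low counts. FUBP1 stood at 237, 254 and 274 CPM, counts scaled to library size with TMM factors, in siMock and at 44.3, 43.3 and 52.9 CPM in siFUBP1, a log2 fold change of -2.44, so the target was lower in every siFUBP1 sample. Of 9 osteoblast lineage markers only RUNX2 and COL1A1 had enough counts to be tested, while COL1A2 and IBSP had 0 counts in every sample and SPARC and ALPL at most 5 in any, although the labels give osteosarcoma cells. The summed CPM of the 9 was 109 to 118 in siMock and 49.6 to 52.4 in siFUBP1, a sum carried by COL1A1 (mean 113 and 45.4 CPM). RUNX2 was called higher, with 8, 8 and 6 counts in siMock and 73, 97 and 39 in siFUBP1, and it passed the low-count filter through siFUBP1 alone. The untested SPP1 and BGLAP also had more counts in each siFUBP1 sample (SPP1 1, 2 and 1 and then 22, 7 and 20, BGLAP 3, 4 and 2 and then 10, 8 and 13). The sums of 4 leukocyte, 3 epithelial and 3 endothelial markers lay at or below 6.15 CPM in every sample, with CD3E at 0. The part of these differences in the results below was not tested. In bulk RNA a smaller share of expressing cells and less RNA per cell cannot be told apart.

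To show the kind of sequence these genes share, a stretch of 102 bases covering a single finger is given for 4 of the genes with the largest rises and for ZNF331, which fell. Capitals mark the codons of the linker that joins neighbouring fingers, and the letters between them encode the finger. All 5 stretches are read 5′ to 3′ on the coding strand from the last coding exon (GENCODE 29, GRCh38).
ZNF616, chr19:52115601-52115702, minus strand, exon 4 of 4: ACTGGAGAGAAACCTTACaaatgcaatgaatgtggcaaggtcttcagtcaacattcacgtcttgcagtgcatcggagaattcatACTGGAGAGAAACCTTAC
ZNF468, chr19:52841397-52841498, minus strand, exon 4 of 4: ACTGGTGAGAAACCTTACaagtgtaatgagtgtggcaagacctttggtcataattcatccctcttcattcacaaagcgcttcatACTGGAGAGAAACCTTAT
ZNF229, chr19:44429482-44429583, minus strand, exon 6 of 6: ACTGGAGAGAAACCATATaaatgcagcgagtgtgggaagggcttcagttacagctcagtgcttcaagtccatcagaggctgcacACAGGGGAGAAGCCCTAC
ZNF559, chr19:9342409-9342510, plus strand, exon 6 of 6: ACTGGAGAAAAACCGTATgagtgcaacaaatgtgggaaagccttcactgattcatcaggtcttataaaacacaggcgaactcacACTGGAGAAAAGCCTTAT
ZNF331, chr19:53577020-53577121, plus strand, exon 7 of 7: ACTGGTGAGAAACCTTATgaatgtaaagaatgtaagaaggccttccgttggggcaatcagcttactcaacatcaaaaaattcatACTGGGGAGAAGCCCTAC
The stretches of ZNF616 and ZNF468, which lie in the same cluster and both rose, were identical at 74 of 102 bases (72.5%). Those of ZNF616 and ZNF331, which moved in opposite directions, were identical at 70 bases (68.6%). Over the 10 pairs the identity ran from 60.8% to 73.5%.

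Knockdown of FUBP1 was accompanied by higher levels of a large share of the chromosome 19 ZNF genes. Of the 246 genes, 171 passed the low-count filter and 75 did not. Among the 171, 107 were higher in siFUBP1 (62.6%), against 30.1% of all genes tested. Only 8 were lower (4.68%), against a background of again 30.1%, and 56 did not pass the threshold, which was an adjusted p below 0.05 from the quasi-likelihood test of edgeR, adjusted by Benjamini-Hochberg over all genes tested. The median log2 fold change of the 171 was 0.57, with quartiles of 0.16 and 0.94, while that of all genes tested was 0.00. A log2 fold change above 1 was reached by 38 of the genes called higher, and the background of this rule was 8.16%. Only 3 of those called lower lay below -1, where the background was 9.13%. The 56 genes that did not pass ran from -1.10 to 0.77 with a median of 0.10, and 33 of them lay above 0. In 113 genes all siFUBP1 samples lay above all siMock samples (66.1%, background 32.2%), and in 12 all lay below (7.02%, background 31.7%).

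The shift was present in each sample. The CPM summed over the 171 genes was 2189, 2155 and 2230 in siMock and 3164, 3171 and 3241 in siFUBP1. The groups did not overlap, and the spread within each group was small beside the gap between them. In the 140 genes with a KRAB match the sums were 1591, 1582 and 1675 in siMock and 2356, 2323 and 2440 in siFUBP1, and in the 31 without one they were 597.7, 573.2 and 555.1 and then 808.7, 847.5 and 800.7. Per length, the median level of the 171 genes was 1.63 FPKM in siMock and 2.50 FPKM in siFUBP1, so that most were expressed at a low level. The order of the changes was not tied to that level, since Spearman's rho between log2 fold change and mean log2 FPKM over the 171 genes was 0.0013.

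**Figure D1:**
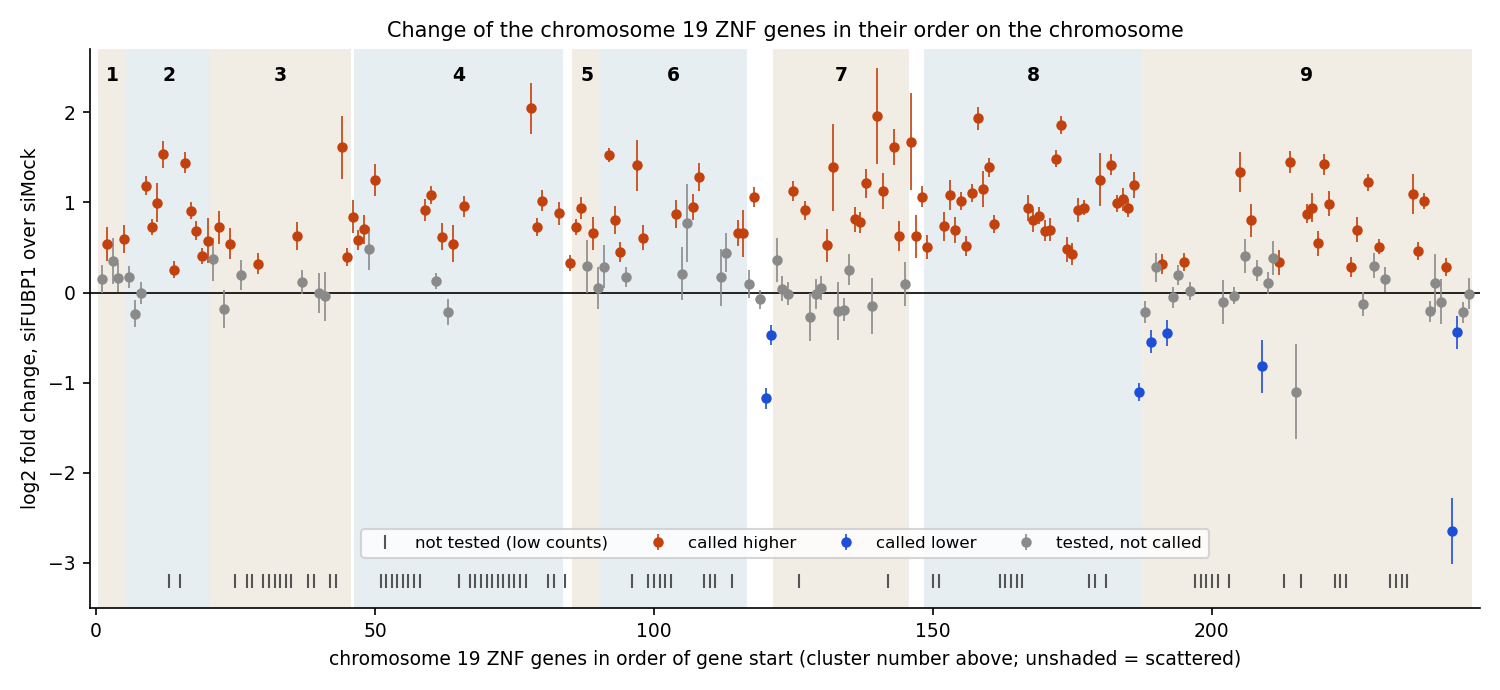
The log2 fold change of siFUBP1 over siMock is plotted for the chromosome 19 ZNF genes in order of gene start, with bars for the standard error of each estimate, shaded bands for the 9 clusters and ticks at the bottom for the 75 genes not tested. Of the 171 points, 140 lie above 0, and the 29 tested genes of cluster 8 are all called higher except ZNF331.

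The 75 genes that were not tested were silent or nearly so. In 53 of them no sample held a count, and the highest mean of the other 22 was 9.33 counts, in ZNF433. The filter needs enough counts in 3 samples, so a gene can pass through 1 group alone. This was so for 3 tested genes with fewer than 10 counts in every siMock sample, all called higher. It was also so for 1 with fewer than 10 in every siFUBP1 sample, ZNF132. ZNF233 and ZNF541 are among the 3, for which a higher level in siFUBP1 was a condition of being tested. With a filter on the mean over all 6 samples (at least 50 counts), 98 of 143 genes were called higher and 6 lower. The background of 30.1% belongs to the default filter, and no share over all genes is given here for this one.

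Where the mean reached 50 counts, the largest rise was that of ZNF616 (ENSG00000204611), a KRAB gene with 21 fingers. Its level was 5.87, 6.93 and 8.12 CPM in siMock and 25.2, 28.8 and 26.0 CPM in siFUBP1. This is 1.94 on the log2 scale (SE 0.13, edgeR adjusted p = 1.28e-12), or 3.83-fold, and every siFUBP1 sample stood far above every siMock sample. ZNF468, like ZNF616 a member of cluster 8, stood at 17.0, 15.4 and 14.4 CPM and then at 56.6, 58.5 and 55.1 CPM, a log2 fold change of 1.86. Part of the ZNF468 exons is shared on the same strand with ZNF320 and ZNF28, so its counts are uncertain there.

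ZNF146 (ENSG00000167635), also known as OZF, encodes a protein made of little more than its 10 fingers, without a KRAB domain. It was among the genes with the highest level per length, at 15.97 ± 1.07 FPKM in siMock and 46.2 ± 0.96 FPKM in siFUBP1 (SD, n = 3). By sample it stood at 65.5, 63.1 and 72.0 CPM in siMock and at 190, 196 and 191 CPM in siFUBP1. The rise was 1.52 on the log2 scale (SE 0.08, edgeR adjusted p = 9.38e-15), and the gap between the groups was far wider than the spread within either. ZNF146 shares 446 exonic bases with ZNF565 on the opposite strand, and the library kit does not mark strand.

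The other 7 of the 10 largest rises were spread over 4 clusters. ZNF229 of cluster 7 was the lowest in level, at 1.83, 2.23 and 2.81 CPM in siMock and 6.91, 7.08 and 7.15 CPM in siFUBP1 (log2 fold change 1.62). ZNF559 and ZNF426 of cluster 2 rose by 1.53 and 1.44 on the log2 scale, and ZNF28 and ZNF845 of cluster 8 by 1.49 and 1.42. ZNF419 and ZNF134 of cluster 9 rose by 1.45 and 1.42. Separate groups were a condition for being named among these 10. Of the 10, 8 hold a KRAB match, the exceptions being ZNF146 and ZNF134. ZNF616, ZNF229, ZNF559, ZNF28 and ZNF419 share exonic bases with another gene, as ZNF468 and ZNF146 do, so their counts are uncertain there. ZNF426, ZNF134 and ZNF845 do not.

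**Figure D2:**
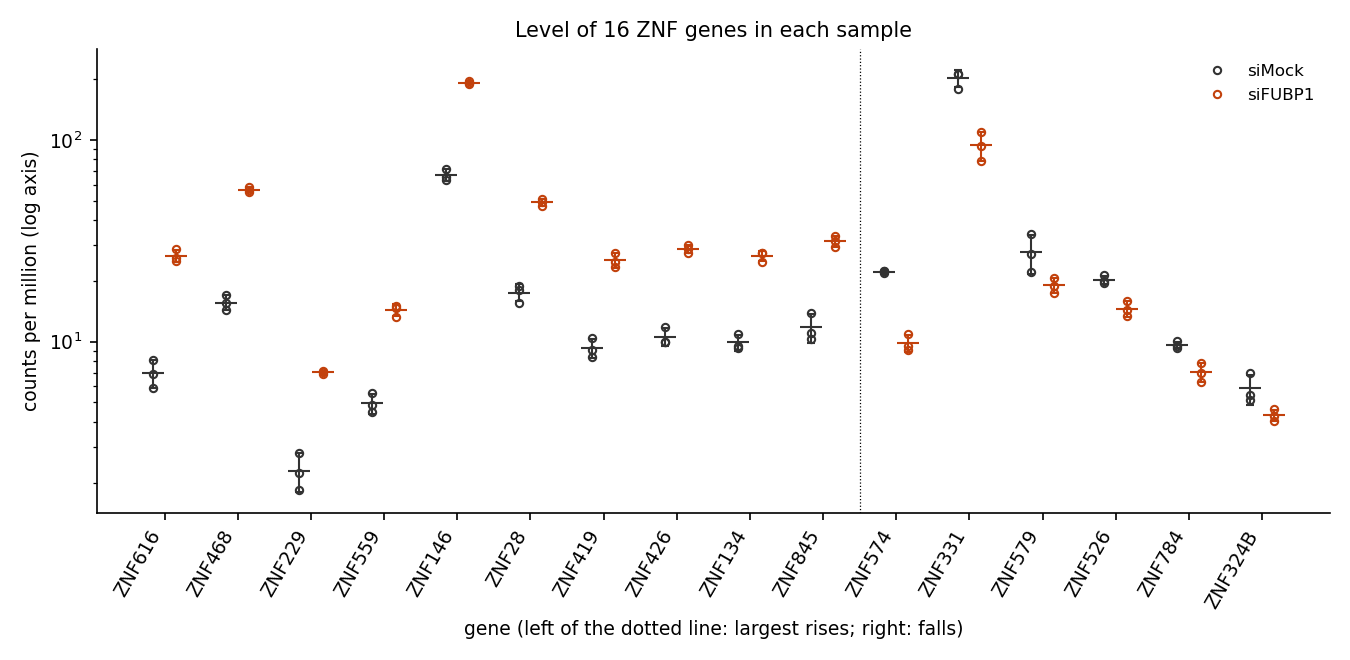
The level in CPM (log axis) of the 10 largest rises and of the 6 falls with a mean of at least 50 counts is shown for each sample as an open circle, with the mean as a dash and the SD as a bar. The 16 genes were chosen with separate groups as a condition, and ZNF146 and ZNF331 have the highest CPM.

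The genes called lower were few, and 4 of the 8 hold a KRAB match. ZNF331 (ENSG00000130844), an imprinted gene at the distal end of cluster 8, was the ZNF gene of chromosome 19 with the highest level per length in siMock. It stood at 213, 179 and 213 CPM in siMock and at 93.1, 78.9 and 110 CPM in siFUBP1, which is -1.10 on the log2 scale (SE 0.10, edgeR adjusted p = 7.42e-09). ZNF574 (ENSG00000105732), which has 18 fingers, no KRAB match and lies outside the clusters, stood at 22.0, 22.3 and 22.4 CPM and then at 9.52, 10.9 and 9.09 CPM (log2 fold change -1.17). Both were well separated between the groups.

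ZNF132 (ENSG00000131849) had the largest fall but few counts, 38, 41 and 47 in siMock and 7, 5 and 9 in siFUBP1. This gives -2.65 on the log2 scale (SE 0.37, edgeR adjusted p = 8.06e-07). ZNF547, at a mean below 50 counts, fell by 0.82 on the log2 scale. The remaining falls were smaller, at -0.55 for ZNF579, -0.47 for ZNF526, -0.45 for ZNF784 and -0.44 for ZNF324B. Of the 8, only ZNF574, ZNF331 and ZNF526 were called lower in each of the 16 alternative fits. With a correction for transcript GC content and length, ZNF579, ZNF784 and ZNF324B were no longer called, at -0.21, -0.19 and -0.25. ZNF526 stayed called but at -0.26. ZNF324B was also not called without siMock replicate 2 (-0.29), nor, at a similar size of change, by DESeq2 (-0.44) or without siFUBP1 replicate 1 (-0.48), 2 (-0.43) or 3 (-0.40), and ZNF784 was not called without siFUBP1 replicate 3 (-0.37).

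A list of 27 members with a described role was examined as a group. Of these, 15 were tested, 10 were higher, 1 was lower, 4 did not pass and 12 were not tested. The share called higher is near the 62.6% of all tested members, with 30.1% over all genes. Among the genes tied to transposable elements, ZNF91, which represses SVA retrotransposons, stood at 19.8, 23.9 and 25.9 CPM in siMock and at 39.95, 37.4 and 38.2 CPM in siFUBP1 (log2 fold change 0.73, SE 0.10, edgeR adjusted p = 7.61e-07). ZNF93, which acts on LINE elements, had at most 1 count in any sample. ZNF587 rose from 44.9 ± 0.666 to 63.9 ± 2.54 CPM (SD, n = 3), or by 0.51 on the log2 scale. Its near copy ZNF417, also a repressor of HERV-K elements, stood at 0.15 (adjusted p = 0.38). Of the 100-base windows of their transcripts, 33.8% in ZNF587 and 26.0% in ZNF417 also occur in other genes, so the split of counts between them is uncertain. ZNF274, which recruits SETDB1 to the 3′ ends of zinc finger genes, stood at 22.3, 25.8 and 22.4 CPM in siMock and at 33.3, 33.2 and 30.8 CPM in siFUBP1. It rose by 0.46 on the log2 scale (SE 0.10), and the groups did not overlap.

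Several members known from signalling or DNA damage pathways were higher. ZNF350 (ZBRK1), a corepressor that works with BRCA1, rose from 4.50 ± 0.787 to 9.56 ± 0.805 CPM (SD, n = 3; log2 fold change 1.09). ZNF675 (TIZ), an inhibitor of TRAF6 signalling, rose from 11.55 ± 1.49 to 23.45 ± 1.10 CPM (SD, n = 3; log2 fold change 1.02). ZNF420 (Apak), a negative regulator of p53, rose by 0.87 on the log2 scale. The others called higher were ZNF180 (0.63), ZNF136 (0.63), ZNF175 (0.50), also known as OTK18, and ZNF507 (0.33). ZNF224, a KRAB repressor, stood at -0.19 (adjusted p = 0.197), ZNF460 at 0.40 (adjusted p = 0.0711) and ZNF444 at 0.02 (adjusted p = 0.884). ZNF460 was called higher without siMock replicate 2 (0.53), and correcting for GC content and length, ZNF224 was called lower (-0.30) and ZNF444 higher (0.39). Of the 100-base windows of ZNF224, 47.6% occur also in an antisense gene, and the library kit does not mark strand.

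Of the 12 untested genes on that list, 10 had no count in any sample. They were ZNF568, ZNF649, ZNF43, ZNF85, ZNF208, ZNF676, ZNF671, ZNF582, ZNF677 and ZNF536. ZNF582, ZNF671 and ZNF677 are known for promoter methylation in tumours, and ZNF536 for a role in neurons. ZNF382 had 3, 1 and 2 counts in siMock and 0, 0 and 1 in siFUBP1, too few to compare.

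To relate the changes to position, members were sorted by start, and a gap of more than 1 Mb between neighbouring starts opened a new cluster. This gave 9 clusters of at least 5 members, holding 235 genes, and 11 scattered genes. The median log2 fold change was above 0 in all 9 clusters, from 0.28 in cluster 9 to 0.94 in cluster 8. Spearman's rho between log2 fold change and gene start was -0.0768 over 171 genes. The background share of 30.1% called higher was exceeded in each cluster, but clusters 1 and 5 hold 5 tested genes each, and without siFUBP1 replicate 3 only 1 gene of cluster 1 was called, which is below the background.

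**Figure D3:**
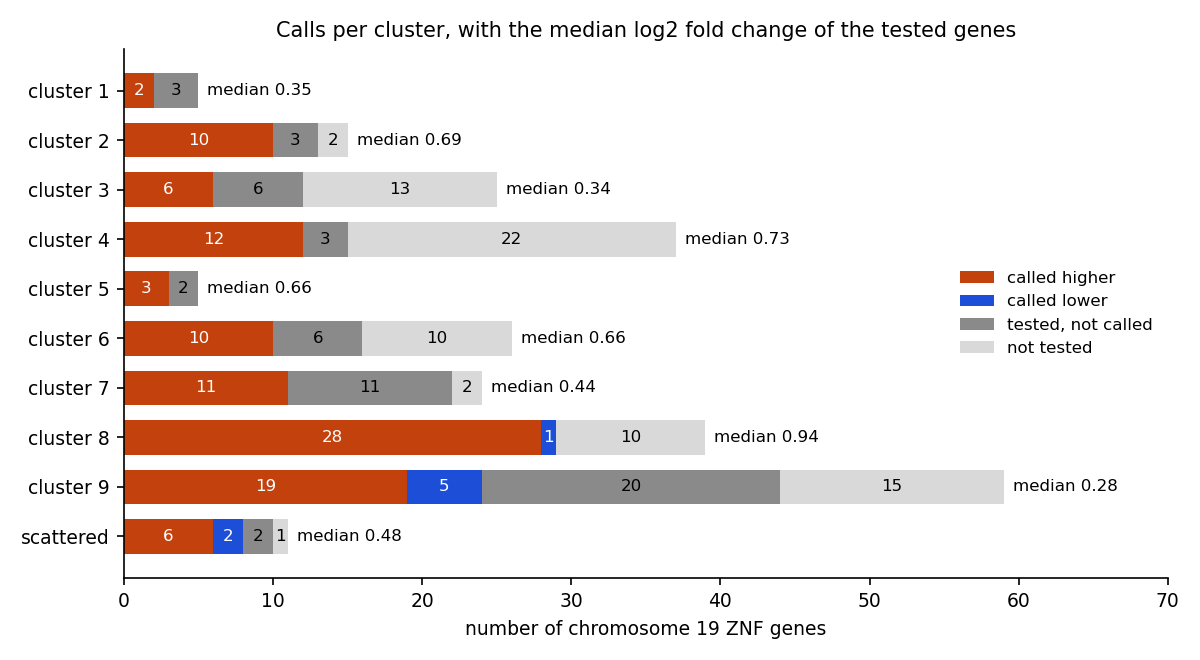
Each bar gives the number of chromosome 19 ZNF genes in a cluster, divided into genes called higher, called lower, tested and not called, and not tested. Cluster 8 holds 28 higher genes and 1 lower among 29 tested, whereas cluster 9 holds 19 higher and 5 lower among 44.

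Cluster 8, at chr19:51571298-53580269 (GRCh38), runs from ZNF175 to ZNF331 and holds 39 members. Of the 29 tested, 28 were higher and ZNF331 was lower, and none fell between. The 28 rises ran from 0.42 in ZNF888 to 1.94 in ZNF616, and 12 of them were above 1. ZNF766 stood at 12.4, 12.5 and 11.3 CPM in siMock and at 31.3, 30.2 and 33.8 CPM in siFUBP1, and ZNF813 at 5.02, 6.93 and 6.46 CPM and then at 14.2, 13.3 and 14.5 CPM. Their log2 fold changes were 1.39 and 1.19. ZNF525 was at 0.99, ZNF665 at 1.25 and ZNF320 at 0.48, although 99.5% of the 100-base windows of ZNF320 occur in other genes of the cluster. The 28 rises were called in each fit that left out a sample, and also after correction for GC content and length, where the cluster median was 0.83. Of the 39 members 38 hold a KRAB match, and the tested members have a median transcript GC content of 40.8%.

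Cluster 4, at 19.7 to 24.1 Mb near the centromere, had the smallest share of genes tested. Only 15 of its 37 members were tested, and 12 of these were higher (median 0.73). ZNF724 had the largest log2 fold change of all 171 genes, 2.04, at 0.80, 0.88 and 0.90 CPM in siMock and 3.66, 3.17 and 3.83 CPM in siFUBP1. It shares exonic bases with AC092329.3, a protein-coding gene on the same strand, and 52.1% of its 100-base windows occur also in that gene. ZNF253 was at 1.25, ZNF714 at 1.08 and ZNF430 at 0.92.

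Clusters 2, 5 and 6 had medians between 0.66 and 0.69. In cluster 2, at 7.07 to 9.79 Mb, 10 of 13 tested genes were higher (median 0.69), among them ZNF558 at 1.19 and ZNF699 at 1.00. In cluster 5, at 34.7 to 35.0 Mb, 3 of 5 were higher (median 0.66), and ZNF181 led with 0.94. In cluster 6, at 36.2 to 37.8 Mb, 10 of 16 were higher (median 0.66), with ZNF461 at 1.41 and ZNF527 at 1.28 beside ZNF146. Only 3 tested genes of cluster 6 share no exonic bases with another gene, and their median was 1.28. No gene tested in these 3 clusters was called lower.

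Clusters 1, 3, 7 and 9 held more genes that did not pass. In cluster 1, at 2.82 to 2.94 Mb, ZNF77 (0.59) and ZNF555 (0.54) were higher among 5 tested. In cluster 3, at 11.5 to 12.6 Mb, 6 of 12 were higher (median 0.34), the largest being ZNF490 at 1.61, of whose windows 70.5% occur in other genes, chiefly AC010422.6 on the same strand. In cluster 7, at 43.5 to 45.1 Mb, 11 of 22 were higher, and the lowest value was -0.27, in ZNF221, which did not pass. There, ZNF233 (1.96) had 3, 5 and 2 counts in siMock and 15, 15 and 12 in siFUBP1, so it passed the low-count filter through siFUBP1 alone. Cluster 9, at 55.5 to 58.5 Mb, held 59 members, of which 19 of 44 tested were higher and 5 lower (3 without siFUBP1 replicate 3), and its median transcript GC content of 48.2% was the highest of the clusters.

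Among the 11 scattered genes, 6 of 10 tested were higher and 2 were lower. ZNF780A and ZNF780B are close copies that stand side by side, and they differed in response. ZNF780B stood at 10.6, 12.8 and 11.7 CPM in siMock and at 23.1, 26.0 and 24.1 CPM in siFUBP1 (log2 fold change 1.06), whereas ZNF780A stood at 21.5, 22.3 and 23.9 CPM and at 19.3, 22.2 and 22.8 CPM (-0.07, adjusted p = 0.57). The difference between them was not tested. ZNF473, a component of the U7 snRNP that processes histone mRNAs, was at 1.06. ZNF541 was at 1.68, with 2, 4 and 5 counts in siMock and 13, 14 and 11 in siFUBP1. It passed the low-count filter through siFUBP1 alone. ZNF541 was not called by DESeq2 (1.71) or without siMock replicate 1 (1.38). ZNF780A, ZNF780B and ZNF473 were chosen after their values were seen.

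Other protein-coding genes of the chromosome were more often called lower than higher, a balance that turned with the correction for GC content and length. Over all genes tested, 30.1% were higher and 30.1% lower. Of 72 tested protein-coding genes inside the clusters without a zinc finger name such as ZNF, ZFP or ZSCAN, 12 were higher (16.7%) and 26 were lower (36.1%). Their median log2 fold change was -0.13, and their median transcript GC content was 60.8%, against 42.4% in members with a KRAB match. The set was made by name, so zinc finger genes under other names may remain in it. Tested coding neighbours, other zinc finger names included, numbered 33, 19 and 15 in clusters 2, 7 and 9. There were 3 in cluster 8 and 0 in clusters 1, 4 and 5. Outside the clusters, 133 of 688 other protein-coding genes of chromosome 19 were higher (19.3%) and 273 were lower (39.7%), with a median of -0.14. Over all 765 of these genes, 145 were higher and 300 lower, against 267 higher and 215 lower after that correction, where the median was 0.0562. Of 57 non-coding genes inside the clusters 15 were higher (26.3%) and 3 lower (5.26%, median 0.19), and 38 lay above 0. Zinc finger genes of chromosome 19 with another kind of name (ZFP, ZSCAN, ZBTB and the like) numbered 23, and 3 of the 10 tested were higher and 2 lower (median -0.06). Only 1 or 2 were called higher in the fits that left out a sample, 1 without siMock replicate 1 or siFUBP1 replicate 1, and 1 by DESeq2. The median was above 0 without a scaling factor (0.0368), without a filter (0.12) and in DESeq2 (0.11).

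The shift was larger in members with a KRAB match. Among them 95 of 140 were higher and 4 lower (median 0.66), whereas 12 of 31 members without a match were higher and 4 lower (median 0.20). Over all genes tested, 30.1% were higher and 30.1% lower. The median transcript GC content was 42.4% with a match and 61.7% without, and the part of GC content in this difference was not tested. On other chromosomes, 50 of 90 tested genes with a KRAB match and at least 3 fingers were higher and 10 lower (median 0.42), and 105 of 243 with at least 3 fingers but no KRAB match were higher and 44 lower (median 0.22). These are descriptions of the lists, and the differences between them were not tested. ZNF-named genes of other chromosomes, 214 tested, had 101 higher and 34 lower (median 0.27). By number of fingers, members with 1 to 9 had a median of 0.35 (50 genes), those with 10 to 14 one of 0.69 (67 genes) and those with at least 15 one of 0.66 (53 genes).

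**Figure D4:**
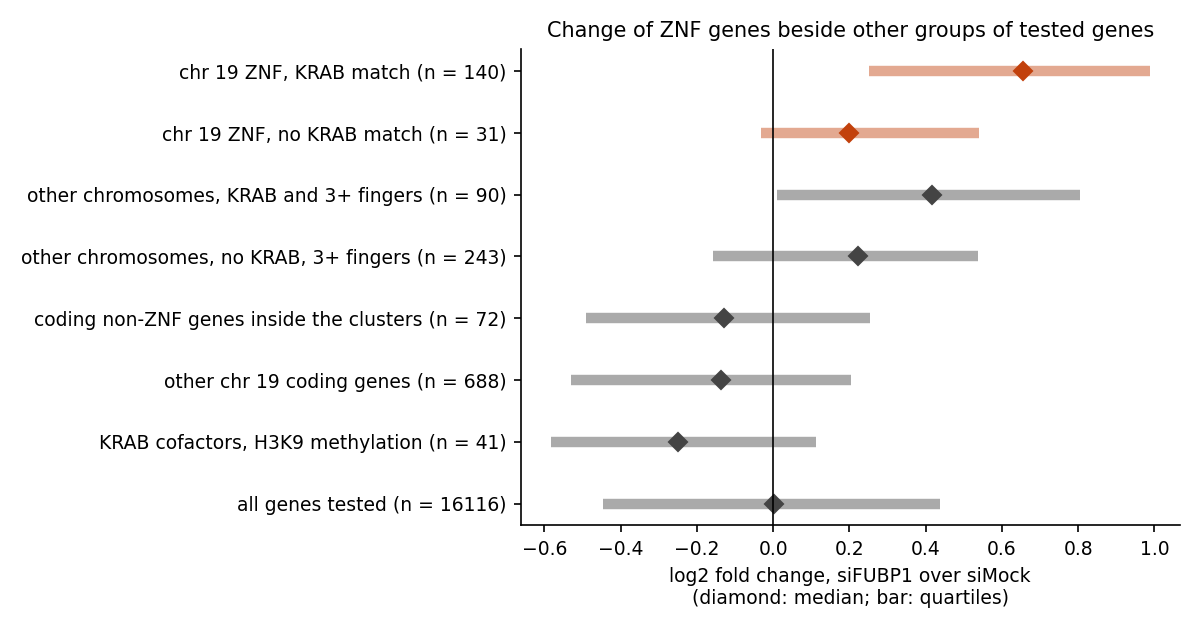
The median (diamond) and quartiles (bar) of the log2 fold change of siFUBP1 over siMock are given for chromosome 19 ZNF genes with and without a KRAB match and for 6 other groups of tested genes. The KRAB members have the highest median, 0.66. The coding genes inside the clusters without a zinc finger name have one of -0.13, and they lie mostly in clusters 2, 7 and 9.

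Transcript composition moved with the change. GC content, taken from 1 GENCODE transcript per gene, had a median of 42.8% in the 171 members and 49.6% in all genes tested, and 61.7% in the members without a KRAB match. Spearman's rho between log2 fold change and GC content was -0.371 over the members and -0.202 over 15938 other genes. Below 40% GC the median log2 fold change was 0.75 in 38 members and 0.16 in 2133 other genes, and between 40% and 45% it was 0.72 in 71 members and 0.12 in 3146 others. Above 60% it was -0.01 in 19 members and -0.25 in 2622 others. Between 50% and 55% it was 0.15 in only 5 members and -0.01 in 2604 others. The members thus lay above the other genes in each band except that between 55% and 60% (-0.16 in 6 members, -0.14 in others). With an offset for GC content and transcript length in the fit, 106 members were higher and 7 lower, with a median of 0.53. Of the 107 genes called higher, 100 were called again. The background of 30.1% each way belongs to the fit without the offset, and no share over all genes is given here with it.

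**Figure D5:**
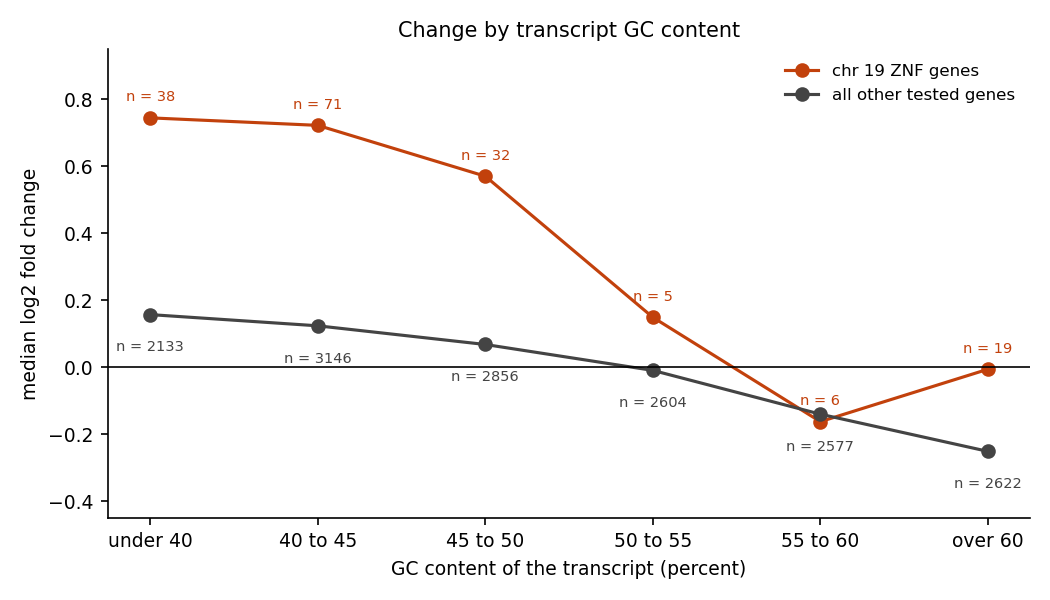
Median log2 fold change of siFUBP1 over siMock by band of transcript GC content (percent), for chromosome 19 ZNF genes and for all other tested genes, with the number of genes beside each point. The members lie above the other genes in the 3 bands below 50%, at 0.75, 0.72 and 0.57. They also do so at 50 to 55% and over 60%, with 5 and 19 members, but not at 55 to 60%. Both sets are lower at high GC content.

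The proteins through which KRAB zinc fingers act were followed by their RNA only, as a list of 41 genes for KRAB cofactors and H3K9 methylation, all tested. Of these, 8 were higher and 23 were lower (19.5% and 56.1%, against 30.1% each way over all genes), and the median log2 fold change was -0.25. TRIM28, the corepressor bound by the KRAB domain, had 7433, 7228 and 5974 counts in siMock and 4608, 4661 and 5269 in siFUBP1, which are means of 420.4 and 280.6 CPM. This is -0.58 on the log2 scale (edgeR adjusted p = 9.25e-07), and the groups did not overlap. With correction for GC content and length it was still called, at -0.30. SETDB1, the methyltransferase it recruits, was at 0.22 with overlapping groups (adjusted p = 0.0445), and was not called by DESeq2 (0.22). Its partner ATF7IP was at -0.51, and the related ATF7IP2 at -0.85.

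Among other H3K9 methyltransferases, SUV39H1 fell by 0.97 and EHMT1 by 0.68 on the log2 scale, while EHMT2 and SUV39H2 did not pass. Of the DNA methylation genes, UHRF1 (-0.81), DNMT1 (-0.47) and DNMT3A (-0.92) were lower, while DNMT3B, at -0.03 with overlapping groups, did not pass (adjusted p = 0.813). Of the HP1 genes, CBX1 (0.43) and CBX3 (0.28) were higher and CBX5 did not pass. In the HUSH complex and its partner, MPHOSPH8 fell by 0.90 and PPHLN1 by 0.33, whereas FAM208A (TASOR) and MORC2 were higher, at 0.78 and 0.73. NuRD genes moved both ways. RBBP7 (-0.64), CHD4 (-0.65), MBD3 (-0.59), RBBP4 (-0.47), HDAC2 (-0.32), CHD3 (-0.30), HDAC1 (-0.25), MTA2 (-0.23) and MTA3 (-0.21) were lower, and MTA1 (0.45), GATAD2A (0.41) and MBD2 (0.30) were higher. TRIM24 (-1.04), TRIM33 (-0.51), SUMO2 (-0.46) and SMARCAD1 (-0.32) were the others called lower. The calls of HDAC1, MTA2, MTA3 and SETDB1 were each lost in at least 1 fit that left out a sample, HDAC1 without siFUBP1 replicate 2 (-0.19), MTA2 without siMock replicate 2 (-0.19) or siFUBP1 replicate 1 (-0.20), MTA3 without any sample but siMock replicate 1, and SETDB1 without siMock replicate 1 (0.14) or 2 (0.23) or siFUBP1 replicate 1 (0.21) or 2 (0.18). CBX3 and CHD3 were not called after correction for GC content and length, at 0.07 and -0.06. Calls that held there at another size were MBD3 (-0.25), DNMT1 (-0.30), MTA2 (-0.16), MTA3 (-0.33), PPHLN1 (-0.55), MTA1 (0.67) and GATAD2A (0.63).

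Promoter sequence was read from RefSeq (GRCh38.p14, 250 bases before to 50 bases after the start), where 215 of the 246 members have an entry. Letters of the core motif of YY1, a zinc finger factor common near transcription starts, AAGATGG on either strand, were found in 7.91% of member promoters, in 13.8% of the 94 called higher and in 6.06% of all 27305 promoters in the table. For promoters of tested protein-coding genes the share was 7.64%. The NRF1 motif GCGCATGC occurred in 4.19% of member promoters, in 2.13% of those called higher, in 8.93% of the 56 tested and not called higher, in 3.27% of all promoters and in 5.52% of those of tested protein-coding genes. The YY1 share in the 56 was 3.57%. The letters CTCGCGAG were found in 0.93% of member promoters and 1.06% of all. The YY1 letters stood in 4 of 5 consecutive members of cluster 8, all of them called higher. They are given here in 30-base windows, read on the strand of the gene, with the motif or its reverse complement in capitals, and were chosen after their values were seen.
ZNF613, chr19:51927332-51927361: tgcaggattcaAAGATGGctgcctccagta
ZNF615, chr19:52008270-52008299: tcagatactcaAAGATGGcggcccccatgg
ZNF615, chr19:52008229-52008258: cgagggcgcggCCATCTTgcatctgcgcaa
ZNF614, chr19:52028595-52028624: aaagggcgccgCCATCTTttttccacagca
ZNF432, chr19:52048894-52048923: tcacgtactcaAAGATGGccgcccccagag
The log2 fold changes of ZNF613, ZNF615, ZNF614 and ZNF432 were 0.73, 0.69, 1.02 and 0.52, and ZNF350, which stands among them without the motif, was at 1.09. ZNF613 lies on the plus strand and the other 3 on the minus strand. A match describes letters in the window and does not show a bound site. The number of CpG in a member's promoter had a Spearman's rho of -0.0751 with the log2 fold change over 150 genes.

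Matches to the siRNA guides were counted because an siRNA can also lower a transcript through its seed. The guides of the study's 3 FUBP1 siRNAs are shown with the seed (bases 2 to 8) in capitals.
RNAi#1: uAAACUGAaugcgaacacc
RNAi#2: uAAGAGGUuugucagcacc
RNAi#3: uUUCUUCUaugaguugccg
The 8-base site of RNAi#1 was present in the 3′ UTR of 13 members, of which 7 of the 8 tested were higher and 0 lower (median 0.82, against 0.55 in members without a site). That of RNAi#2 was present in 3 members, with 1 higher and 1 lower (median 0.17, against 0.58 without). That of RNAi#3 was present in 23, with 14 of 17 tested higher and 2 lower (median 0.76, against 0.53 without). The coding sequence held the RNAi#3 site in 25 members, and 11 of the 15 tested were higher and 0 lower (median 0.50, against 0.59 without). It held the RNAi#1 site in 7, and 3 of the 4 tested were higher and 0 lower (median 0.47, against 0.57 without). The RNAi#2 site stood in the coding sequence of 1 member, tested and not called (-0.15). For comparison, 62.6% of all tested members and 30.1% of all genes tested were higher.

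Counting is uncertain for part of this family, because its members overlap and resemble each other. Exonic bases were shared with another gene in 137 of the 246 members, 98 of them tested. Among the 73 tested members without such overlap, 50 were higher (68.5%) and 7 lower, with a median of 0.61. Of the 84 tested members in which no 100-base window occurs in another gene, 55 were higher (65.5%) and 5 lower (median 0.58). In the 31 with over 10% of shared windows, 11 were higher (35.5%) and 1 lower (median 0.30). Over all genes tested 30.1% were higher, so the share called higher in these 31 lay near the background. The log2 fold change and the share of such windows had a Spearman's rho of -0.0118 over 171 genes.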

How the data were processed

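RNA-seq of 3 siMock and 3 siFUBP1 samples of MG63 cells was analysed. The authors deposited 1 table with raw counts per gene and FPKM values scaled by gene length and depth. The submitters' processing notes list HISAT2 2.0.5, StringTie 1.3.3b, featureCounts 1.5.0-p3 and DESeq2 1.16.1, whose settings are not given in the sources used here. The poly-A library kit does not mark strand. The deposited columns of the authors' comparison (normalized group signal, log2 fold change, p-value) were not used. All 58735 identifiers matched GENCODE 29 (GRCh38) in start and end.

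Counts were tested in R 4.3.3 with edgeR 4.0.16 (TMM, filterByExpr, robust quasi-likelihood test, Benjamini-Hochberg over 16116 genes, called at an adjusted p below 0.05). Totals ran from 16309900 to 17484313 counts per sample. Alternatives used DESeq2 1.42.0, limma 3.58.1 on log2(FPKM + 1) or log2(FPKM + 0.1), other scalings and filters, a replicate block, an offset from a trend on GC content and transcript length, and the omission of each sample. On simulated counts for 16065 genes of this comparison, edgeR recovered 88.5% of 87 genes changed by 1 on the log2 scale. It recovered 100% of 113 changed by 2, with 15 false calls. In the data 4844 genes were called higher and 4851 lower, so the simulation held far fewer changes. With a GC trend added to the simulated counts, edgeR without the offset made 5020 false calls among 16041 genes and 10 with it. The added trend was a straight line in GC content, a form the offset can fit, so trends of another form were not checked. Calls in the text are without the offset unless stated. KRAB domains and fingers were found by pattern in 1 translated transcript per gene. Figures were drawn with Matplotlib 3.10.9.

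Members and gene lists were chosen with earlier results of these data known. Genes named by rule were FUBP1, members with a described role, the 10 largest rises and falls among called members whose mean count reaches 50 and whose groups are separate, the largest change of each cluster, and every called cofactor gene. Other members named with the clusters, such as ZNF766, ZNF813, ZNF253, ZNF558, ZNF461 and ZNF527, follow none of these rules. They were named with their values known and do not represent their clusters. Correlations across genes are descriptions, since genes are not independent replicates.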

Additional observations from a re-analysis of the deposited data

How the results depend on the processing

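The number of ZNF genes of chromosome 19 called higher (107) and lower (8) and their median log2 fold change (0.57) kept their direction in all alternatives. With a required log2 fold change above 1 the counts were 38 and 3, and without members that share exonic bases 50 were higher. The median was 0.67 with no scaling factor, 0.63 where the mean count had to reach 50, 0.31 and 0.52 with limma on log2(FPKM + 1) and log2(FPKM + 0.1), 0.53 with GC and length correction, and 0.61 without members that share exonic bases. Leaving out each sample in turn gave medians of 0.53 to 0.61, 100 to 103 higher and 6 to 9 lower. DESeq2 called 96 higher and 6 lower. The background of 30.1% each way belongs to the main edgeR fit, and no share over all genes is given here for the other fits. Of the 107 genes, 87 were called higher in all 16 alternative fits, where a gene removed by a filter counts as not called, and no called member changed sign.

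Of the same-numbered samples, those of replicate 3 deviated together (correlation 0.181, the highest of the 9 combinations), while replicates 1 and 2 did not (0.000219 and 0.0331), so the number is not known to pair the samples. With the replicate block 107 members were higher and 8 lower. With the block and the GC and length correction together, an alternative chosen after seeing the data, the counts were 105 and 7 and the median 0.53.

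Values that turned sign were the median of other protein-coding genes of chromosome 19 with GC and length correction (0.0562, and 0.057 with the replicate block added), the median of the other zinc finger list without scaling (0.0368), without a filter (0.12) and with DESeq2 (0.11), the ZNF444 log2 fold change without siMock replicate 3 (-0.0437) or siFUBP1 replicate 2 (-0.0215), where leaving out each sample gave up to 0.0936 and the GC and length correction gave 0.39, and the lowest cluster median at a gap of 0.5 Mb (-0.0163). The cause was not tested. Depth limits what can be said of the 75 untested genes.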
